A study of Mus musculus with 9 samples.

Results

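The subunits of the respiratory chain and of ATP synthase were followed in the kidneys of wild-type mice, by RNA sequencing of 9 libraries in 3 groups of 3. In the AKI_PTPi_mEVs group, mice with acute kidney injury received milk extracellular vesicles that carried siRNA to PTP1B, the phosphatase encoded by Ptpn1. In the AKI_PBS group, mice with the same injury received phosphate-buffered saline. The sham group had surgery but no ischemia-reperfusion injury, and its treatment label is also PBS. The design has no injured group with empty vesicles or with a control siRNA, so the siRNA and the vesicles cannot be told apart. The labels used here give no time after injury, dose, age or number of animals behind a library, and p-values therefore measure the spread between these libraries, which may be technical.

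Members were protein-coding genes whose mouse symbol belongs to the Nduf, Sdh, Uqcr, Cox4 to Cox8, Atp5, mt-Nd, mt-Co, mt-Cytb or mt-Atp families and that had at least 10 counts in 3 or more of the 9 libraries. Of 98 protein-coding genes with such a symbol, 93 were kept, out of 56923 gene identifiers in all: 81 nuclear genes and 12 genes of the mitochondrial genome (mtDNA). All 93 passed the low-count filter that left 17036 genes for testing, and 89 of them reached 10 counts in all 9 libraries. Just inside the count limit were Cox6a2 and mt-Nd4l. Cox6a2 reached it in the 3 sham libraries only and so had to differ. mt-Nd4l reached it in 4 libraries of AKI_PBS and sham and in no AKI_PTPi_mEVs library, so its lower level with vesicles follows in part from the limit. Just outside were Cox8b, which reached it in 2 libraries, and mt-Nd3, Cox7b2, Cox8c and a second Atp5o identifier, which reached it in 0. By complex, 41 members belonged to complex I, 4 to complex II, 9 to complex III, 20 to complex IV and 19 to complex V, with Ndufa4 and its paralog Ndufa4l2 placed in complex IV. An Nduf symbol was taken only with a single letter a, b, c, s or v before a digit. The accessory subunit genes Ndufab1 and Usmg5 have symbols that were therefore not matched. Ndufb1-ps has a matching symbol but is not annotated as protein coding, and it was not counted either. Atp5s, a factor coupled to ATP synthase, and Cox7a2l, which acts in joining complexes III and IV into supercomplexes, are members by symbol although not classical structural subunits.

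Complexes I and II take electrons from NADH and succinate and pass them through coenzyme Q to complex III, cytochrome c and complex IV, where oxygen is reduced. Complexes I, III and IV pump protons, and complex V uses the gradient to make ATP. Complex II is encoded by the nucleus alone, while the other complexes combine nuclear subunits with a few hydrophobic ones transcribed and translated inside mitochondria. In the kidney, the proximal tubule and the thick ascending limb are packed with mitochondria because sodium reabsorption consumes much ATP, and the proximal tubule is the main site of damage in ischemia-reperfusion.

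Library totals lay between 9467851 and 11389479 counts. Ptpn1 was at 94.0 to 106 CPM (counts scaled to a common library size with TMM factors) in AKI_PTPi_mEVs libraries, 123 to 170 CPM in AKI_PBS libraries and 80.9 to 98.8 CPM in sham libraries. Its log2 fold change was -0.53 ± 0.15 (SE) for AKI_PTPi_mEVs against AKI_PBS (edgeR adjusted p = 0.00862) and 0.71 ± 0.15 for AKI_PBS against sham (edgeR adjusted p = 0.0012). The summed level of 13 proximal tubule markers was 10300 to 16000 CPM in AKI_PTPi_mEVs libraries, 5840 to 8910 CPM in AKI_PBS libraries and 15800 to 20000 CPM in sham libraries, and none of the 13 was at 0. The 7 markers of the thick ascending limb summed to 2050 to 2450 CPM in AKI_PTPi_mEVs libraries, 1220 to 2280 CPM in AKI_PBS libraries and 3240 to 3600 CPM in sham libraries, none at 0. For AKI_PTPi_mEVs against sham, 4 of these 7 were called lower at an edgeR adjusted p under 0.05 (2 to 4 with 1 library left out). Of the 13 proximal tubule markers 3 were called lower (2 to 4 with 1 library left out), beside 5.79% of all genes. The nuclear-retained RNAs Malat1 and Neat1 summed to 3230 to 3480 CPM in AKI_PTPi_mEVs libraries, 6600 to 10200 CPM in AKI_PBS libraries and 3180 to 3540 CPM in sham libraries. These values move with the groups compared here, and their part in the results was not tested. In whole-kidney RNA, fewer cells of a type and less RNA per cell cannot be told apart.

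The nuclear and the mitochondrial subunit genes did not move together. Nuclear members took 1.73%, 1.90% and 2.02% of the counts in AKI_PTPi_mEVs libraries, 1.87%, 1.67% and 1.76% in AKI_PBS libraries, and 2.40%, 2.29% and 2.14% in sham libraries. All 6 injured libraries lay below the 3 sham libraries in this share, while the injured groups overlapped. Members encoded by mtDNA took 0.967%, 1.11% and 1.04% in AKI_PTPi_mEVs libraries, 1.55%, 1.68% and 1.71% in AKI_PBS libraries, and 1.78%, 1.29% and 1.30% in sham libraries. For these genes the AKI_PTPi_mEVs libraries lay below all others, and the AKI_PBS and sham libraries overlapped. The ratio of mitochondrial to nuclear member counts was 0.557, 0.586 and 0.515 in AKI_PTPi_mEVs libraries, 0.828, 1.01 and 0.975 in AKI_PBS libraries, and 0.740, 0.562 and 0.606 in sham libraries. The AKI_PBS libraries had the highest ratios, apart from both other groups, and AKI_PTPi_mEVs and sham libraries overlapped. The 95% Wilson interval of a share was at most 0.0095 percentage points to either side, which covers counting error only.

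With injury alone, many nuclear subunit genes were called lower and none was called higher, though 6 had a positive log2 fold change. For AKI_PBS against sham, 44 of 81 nuclear members were lower and 0 were higher at an edgeR adjusted p under 0.05, and their median log2 fold change was -0.45. Over all genes tested, 55.7% were called in either direction, 27.9% lower and 27.8% higher, with a median of 0.03. The groups did not overlap for 48 nuclear members, all lower, where 30.9% of all genes were lower without overlap. Of the 12 mtDNA members, 2 were called higher and 0 lower, with a median of -0.01, and 1 was higher without AKI_PBS replicate 3, sham replicate 2 or sham replicate 3. When each library was left out in turn, 31 to 50 nuclear members were called lower, and 28 of the 44 kept their call every time. Cox6a2, a member through its sham counts, is 1 of the 44 and of the 28.

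Between the injured groups 60 of 81 nuclear members were not called, and the calls went both ways. For AKI_PTPi_mEVs against AKI_PBS, 13 of 81 nuclear members were higher and 8 were lower (edgeR adjusted p under 0.05), with a median log2 fold change of 0.01, against 25.4% higher and 25.8% lower (51.1% in either direction) over all genes tested with a median of -0.03. Scaled by library totals and without TMM, 10 nuclear members were higher and 12 lower, and the median of all genes was -0.13. Of the 12 mtDNA members, 8 were lower and 0 higher, and all 12 had a negative log2 fold change, with a median of -0.78. Among them, mt-Nd4l became a member through AKI_PBS and sham counts only, so its direction follows in part from the count limit. A correction for gene length and GC content, chosen after seeing the data, left 5 called lower and put the median at -0.44, with mt-Atp8, which was not called, at 0.17. The groups did not overlap for 10 of these 12, all lower, where 29.2% of all genes were lower without overlap. The nuclear counts rested on few libraries: 5 were higher without AKI_PTPi_mEVs replicate 3, 6 were higher without AKI_PBS replicate 2, and 1 was lower without AKI_PTPi_mEVs replicate 1. The mtDNA count stayed between 7 and 9 with any 1 library left out.

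Against sham, vesicle-treated injured kidneys had lower levels in both sets, but with weaker calls. For AKI_PTPi_mEVs against sham, 28 of 81 nuclear members were lower and 0 higher (edgeR adjusted p under 0.05), with a median log2 fold change of -0.48, against 5.79% lower and 7.43% higher (13.2% in either direction) over all genes tested and a median of -0.01. Of the 12 mtDNA members, 5 were lower and 0 higher, with a median of -0.68. The groups did not overlap for 49 nuclear and all 12 mtDNA members, all lower, where 18.1% of all genes were lower without overlap. These include Cox6a2, a member through its sham counts alone, and mt-Nd4l, a member through AKI_PBS and sham counts only. For both, the direction follows at least in part from the count limit. The calls depended on single libraries and on the processing. After the correction for length and GC content 17 nuclear and 0 mtDNA members were lower, the mtDNA median being -0.34, and 44 nuclear members were lower without a low-count filter. The nuclear count was 2 without AKI_PTPi_mEVs replicate 1, sham replicate 1 or sham replicate 2, and 6 without AKI_PTPi_mEVs replicate 2. The mtDNA count was 0 without AKI_PTPi_mEVs replicate 1 or sham replicate 1, 1 without AKI_PTPi_mEVs replicate 2 and 3 without sham replicate 2. The median of nuclear members lay between -0.60 and -0.36 with any 1 library left out. The 3 comparisons share groups, so their values are set side by side and are not independent.

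**Figure D1:**
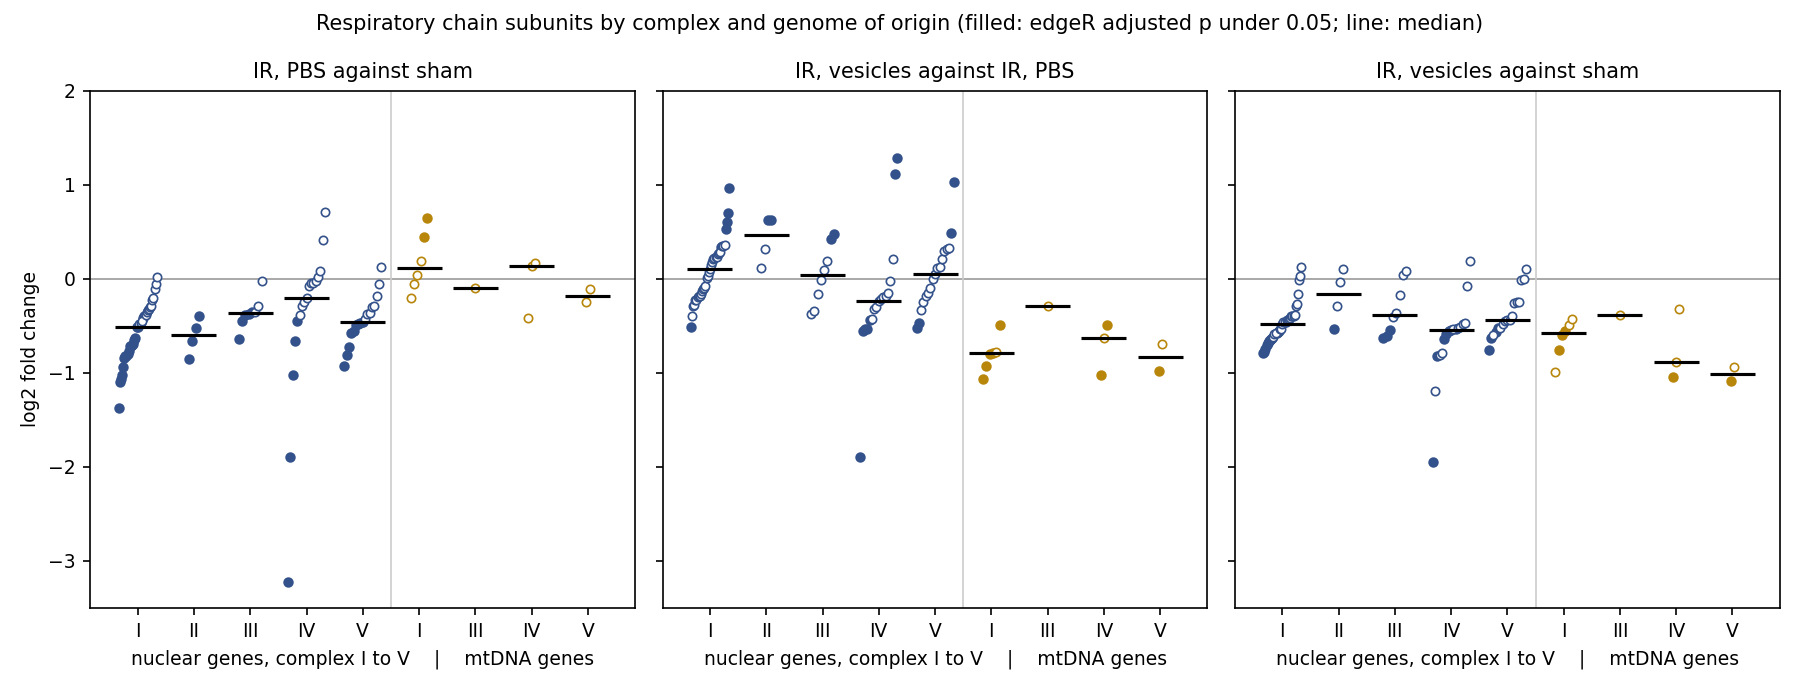
Log2 fold change (vertical axis) of each of the 93 subunit genes by complex, nuclear genes on the left and mtDNA genes on the right of each panel, for 3 comparisons; filled points passed an edgeR adjusted p of 0.05 and lines are medians. Nuclear genes lie mostly below 0 in the AKI_PBS and sham comparison (median -0.45) while the 12 mtDNA genes centre near 0 (-0.01), and in the comparison of AKI_PTPi_mEVs with AKI_PBS the mtDNA genes all lie below 0 (-0.78) while the nuclear genes centre near 0 (0.01).

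Of the 81 nuclear members, 9 were lower with injury, higher with vesicles than with PBS, and not called between AKI_PTPi_mEVs and sham, the pattern of 17.8% of all genes tested. Another 17 were lower with injury and not called in either comparison of the vesicle group (5.12% of all genes). A further 15 were called lower in both injured groups against sham with no call between the injured groups (2.55% of all genes). Another 3 were lower in both and higher with vesicles (1.65%), and Cox6a2, a member through its sham counts alone, is 1 of these 3. Of the remaining nuclear members, 5 were called only as lower with vesicles than with PBS (4.44% of all genes) and 3 were lower with vesicles in both comparisons (0.839%). Another 7 were called only as lower in AKI_PTPi_mEVs against sham (0.358% of all genes), 1 only as higher with vesicles than with PBS (3.40%), and 21 were not called at all (33.1%). These shares describe the same 9 libraries, and the members were not tested as a set. Among the 12 mtDNA members, 2 were higher with injury and lower with vesicles than with PBS, near the 18.2% of all genes with that pattern. Another 4 were lower with vesicles in both comparisons (0.839% of all genes), and 3 were not called (33.1%). Of the others, 2 were called only as lower with vesicles than with PBS (4.44%) and 1 only as lower in AKI_PTPi_mEVs against sham (0.358%). A missing call does not show that 2 groups were equal.

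The mitochondrial genome encodes 13 proteins, and its genes were read very unevenly. Each of mt-Nd1, mt-Nd2, mt-Co1, mt-Nd4, mt-Nd5, mt-Nd6 and mt-Cytb had between 2001 and 55405 counts in every library. The 6 genes that follow one another along mtDNA from mt-Co2 to mt-Nd4l had between 0 and 134. In the mouse reference, chromosome 1 holds a nuclear copy of this stretch of mtDNA, annotated as pseudogenes. The copy of mt-Co2 (Gm28661) is identical over 681 aligned bases, or 99.6% of the gene, and the copies of mt-Atp6 (Gm10925), mt-Co3 (Gm28437), mt-Nd3 (Gm28438) and mt-Nd4l (Gm10222) are identical over 98.3% to 99.9% of their genes. For mt-Nd4, 63.6% of the gene is identical to the copy Gm28439, and for mt-Co1 31.3% is matched by the copy Gm29216 with 1 difference in 483 bases. For mt-Atp8 the identical part within Gm10925 is 43 bases. Reads that match 2 places equally can be left uncounted, by settings not given in the sources used, and the levels of these 6 genes are therefore uncertain. Those of mt-Nd4 and mt-Co1 are uncertain in part, over the stretches matched by a copy. mt-Atp8 also overlaps mt-Atp6, and mt-Nd4l overlaps mt-Nd4.

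The first 90 bases of mt-Co2 are shown because they are the same letters in the nuclear copy, and 90 bases of mt-Co1 because there the copy on chromosome 2 can be told apart. The sequences come from the GENCODE M21 transcripts of the GRCm38 reference, 5′ to 3′, and capitals mark the bases at which a gene and its copy differ. The mt-Co2 pair holds no capitals.
mt-Co2: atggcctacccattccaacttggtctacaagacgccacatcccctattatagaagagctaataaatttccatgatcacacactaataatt
Gm28661: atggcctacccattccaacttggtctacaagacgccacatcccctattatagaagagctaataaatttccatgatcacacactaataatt
mt-Co1: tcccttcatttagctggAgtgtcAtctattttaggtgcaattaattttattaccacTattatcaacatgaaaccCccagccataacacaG
Gm13340: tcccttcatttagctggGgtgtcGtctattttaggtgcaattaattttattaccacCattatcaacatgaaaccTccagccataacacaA
The mt-Co1 stretch, bases 445 to 534 of the gene, holds 5 differences, and the whole alignment of 1545 bases holds 37. The pseudogenes themselves had few counts: 52 to 170 for Gm28661, against 14 to 49 for mt-Co2, and 141 to 320 for Gm13340, against 28420 to 53283 for mt-Co1. Among annotated pseudogenes, no copy was found for mt-Nd1, mt-Nd5, mt-Nd6 or mt-Cytb.

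**Figure D2:**
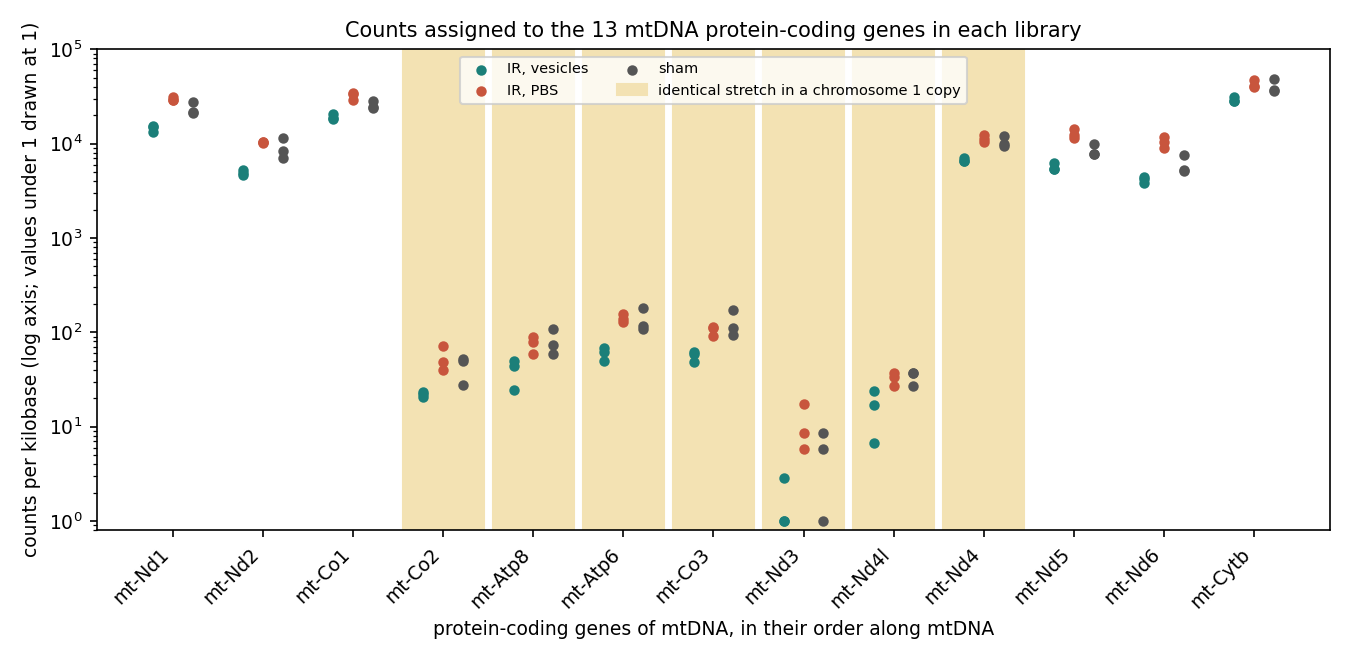
Counts per kilobase (log axis, values under 1 drawn at 1) of the 13 mtDNA protein-coding genes in their order along mtDNA, with 1 point per library coloured by group; shading marks genes with an identical stretch in a chromosome 1 copy. The 6 genes from mt-Co2 to mt-Nd4l, with 0 to 134 counts, lie far below the 7 others, which have 2001 to 55405.

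Most of the 7 well-counted mtDNA genes encode complex I subunits, and so did the 4 with the largest falls with vesicles against PBS. The remaining complex I gene of the 7, mt-Nd4, had the same log2 fold change (-0.49) as mt-Co1 of complex IV. mt-Nd5, a proton-pumping subunit of complex I, had 1030, 1080 and 1090 CPM in AKI_PTPi_mEVs libraries, 1830, 1940 and 2320 CPM in AKI_PBS libraries, and 1750, 1310 and 1440 CPM in sham libraries. The 3 groups did not overlap, with AKI_PBS highest and AKI_PTPi_mEVs lowest. Its log2 fold change was -0.93 ± 0.15 for AKI_PTPi_mEVs against AKI_PBS (edgeR adjusted p = 0.000316) and 0.44 ± 0.15 for AKI_PBS against sham (edgeR adjusted p = 0.0258). The rise with injury lost its call without AKI_PBS replicate 3 (0.33), sham replicate 2 (0.35) or sham replicate 3 (0.41). mt-Nd6, the complex I subunit on the opposite strand to the other protein genes, had 208, 241 and 220 CPM in AKI_PTPi_mEVs libraries, 408, 463 and 539 CPM in AKI_PBS libraries, and 380, 255 and 269 CPM in sham libraries. Again the 3 groups were apart in the same order, with log2 fold changes of -1.07 ± 0.17 with vesicles against PBS (edgeR adjusted p = 0.000254) and 0.64 ± 0.17 for AKI_PBS against sham (edgeR adjusted p = 0.00642). mt-Nd5 and mt-Nd6 overlap on opposite strands, and since the sources used here do not give the counting's strand setting, reads of the overlap cannot be told apart.

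mt-Nd1, another proton-pumping subunit, had 1170, 1590 and 1570 CPM in AKI_PTPi_mEVs libraries, 2420, 2590 and 2460 CPM in AKI_PBS libraries, and 2560, 1930 and 2060 CPM in sham libraries. The AKI_PTPi_mEVs libraries lay below all others, and AKI_PBS and sham overlapped. The log2 fold change was -0.79 ± 0.16 for AKI_PTPi_mEVs against AKI_PBS (edgeR adjusted p = 0.00143) and 0.19 ± 0.16 for AKI_PBS against sham (edgeR adjusted p = 0.335). mt-Nd2 and mt-Nd4 had log2 fold changes of -0.80 and -0.49 with vesicles against PBS, both called (edgeR adjusted p = 0.00244 and 0.0128), the call of mt-Nd4 being lost after the length and GC correction (-0.21). mt-Co1, the catalytic subunit of complex IV, had 2940, 3160 and 3120 CPM in AKI_PTPi_mEVs libraries, 3850, 4420 and 4710 CPM in AKI_PBS libraries, and 4280, 3480 and 3750 CPM in sham libraries. It was lower in every AKI_PTPi_mEVs library than in any other, with a log2 fold change of -0.49 ± 0.14 against AKI_PBS (edgeR adjusted p = 0.0114) and -0.32 ± 0.14 against sham (edgeR adjusted p = 0.156).

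mt-Cytb, the mtDNA-encoded subunit of complex III, had the smallest fold change of the 7 with vesicles against PBS. It had 2990, 3860 and 3520 CPM in AKI_PTPi_mEVs libraries, 3970, 4020 and 4720 CPM in AKI_PBS libraries, and 5430, 3930 and 4220 CPM in sham libraries. AKI_PTPi_mEVs libraries were again the lowest, but the log2 fold change of -0.29 ± 0.17 against AKI_PBS was not called (edgeR adjusted p = 0.155). Against sham, mt-Nd1 (-0.60), mt-Nd2 (-0.76) and mt-Nd4 (-0.56) were called lower in AKI_PTPi_mEVs libraries (edgeR adjusted p = 0.0285, 0.0146 and 0.0243), and none of these calls held when AKI_PTPi_mEVs replicate 1 was left out (-0.47, -0.64 and -0.51) or when sham replicate 1 was left out (-0.47, -0.55 and -0.44). Of the poorly counted genes, mt-Atp6 and mt-Co2 were called lower with vesicles against PBS (-0.98 and -1.02, edgeR adjusted p = 0.00857 and 0.0223), on levels of 1.38 to 9.18 CPM in these groups. mt-Co2 lost its call without AKI_PTPi_mEVs replicate 1 (-0.93), AKI_PTPi_mEVs replicate 3 (-1.01) or AKI_PBS replicate 2 (-0.75). Both calls were lost after the length and GC correction, mt-Atp6 at -0.58 and mt-Co2 at -0.71. mt-Atp6 and mt-Co3 were called lower against sham (-1.09 and -1.05, edgeR adjusted p = 0.0193 and 0.0244), which did not hold without AKI_PTPi_mEVs replicate 1 (-0.90 and -0.87), AKI_PTPi_mEVs replicate 2 (-1.17 and -1.18) or sham replicate 1 (-0.82 and -0.75).

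**Figure D3:**
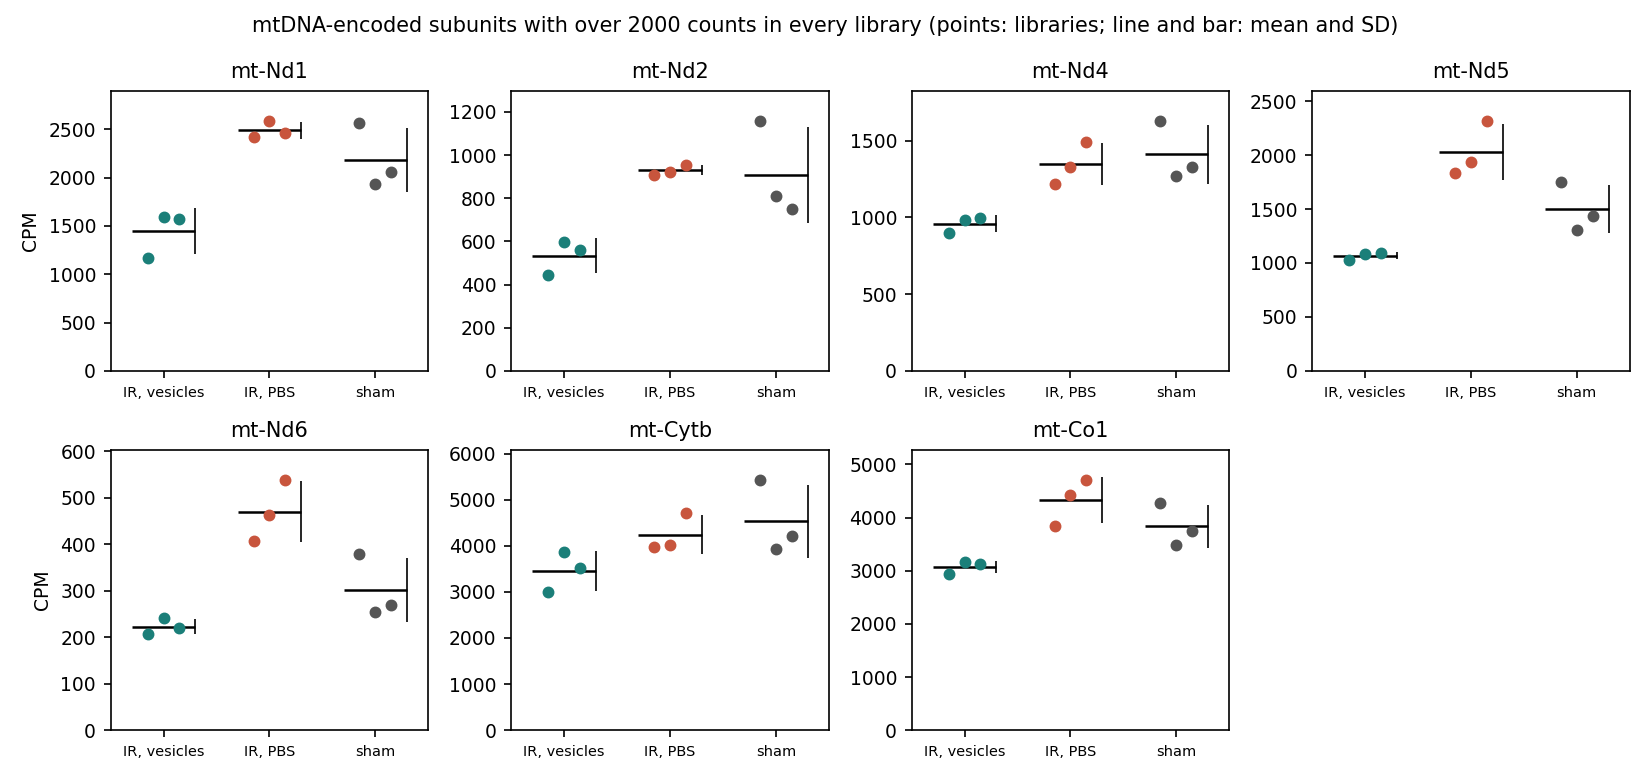
CPM (linear axis from 0) of the 7 well-counted mtDNA genes in each library, with AKI_PTPi_mEVs left, AKI_PBS in the middle and sham right; lines are group means and bars SD over 3 libraries. All 7 genes are lowest in the AKI_PTPi_mEVs libraries, and mt-Nd5 and mt-Nd6 are highest in the AKI_PBS libraries.

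Ordered by level per kilobase of exon, the well-counted mtDNA genes stood above every nuclear subunit in sham libraries. Exon length joins all annotated exons of a gene and can exceed that of its main transcript, so this order depends on it. The levels of mt-Nd4 and mt-Co1 are also uncertain over the stretches matched by a nuclear copy. mt-Cytb was at 3960 RPKM (CPM per kilobase of exon), mt-Co1 at 2480, mt-Nd1 at 2280, mt-Nd4 at 1020, mt-Nd2 at 873, mt-Nd5 at 822 and mt-Nd6 at 581 RPKM. Next came the nuclear genes Sdhd (563), Atp5b (559), Atp5a1 (553) and Uqcrfs1 (551), whose order among themselves and below mt-Nd6 is within the spread between libraries. Cox4i2 was the lowest nuclear member, at 2.70 RPKM. In AKI_PTPi_mEVs libraries mt-Nd6 averaged 430 RPKM, against 905 RPKM in AKI_PBS libraries and 581 RPKM in sham libraries.

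Complex I, the entry point for NADH, is the complex with the most nuclear members. For AKI_PBS against sham 21 of 35 were lower (17 to 27 with 1 library left out) and 0 higher, beside 27.9% and 27.8% of all genes. Complex II had 4 of 4 lower and complex III 5 of 8. With vesicles against PBS 5 of the 35 were higher and 1 lower, beside 25.4% and 25.8% of all genes. Of the 35, 3 were higher without AKI_PTPi_mEVs replicate 2 or AKI_PBS replicate 2, and 2 without AKI_PTPi_mEVs replicate 3. For AKI_PTPi_mEVs against sham 13 were lower, beside 5.79% of all genes. That count was 0 without AKI_PTPi_mEVs replicate 1, sham replicate 1 or sham replicate 2, and 2 without AKI_PTPi_mEVs replicate 2. Ndufs1 (ENSMUSG00000025968), a core subunit with iron-sulfur clusters in the arm that takes electrons from NADH, had 345, 310 and 384 CPM in AKI_PTPi_mEVs libraries, 176, 147 and 210 CPM in AKI_PBS libraries, and 264, 323 and 366 CPM in sham libraries. All 3 AKI_PBS libraries lay below the 6 others, and AKI_PTPi_mEVs and sham overlapped. The log2 fold change was -0.84 ± 0.17 for AKI_PBS against sham (edgeR adjusted p = 0.000987), 0.96 ± 0.17 for AKI_PTPi_mEVs against AKI_PBS (edgeR adjusted p = 0.000472) and 0.12 ± 0.17 for AKI_PTPi_mEVs against sham (edgeR adjusted p = 0.678). Ndufv3 (ENSMUSG00000024038), an accessory subunit of the same arm, had 123, 118 and 146 CPM in AKI_PTPi_mEVs libraries, 94.8, 78.4 and 81.6 CPM in AKI_PBS libraries, and 168, 180 and 186 CPM in sham libraries. Here the 3 groups were apart, with AKI_PTPi_mEVs between the others. The log2 fold change was -1.07 ± 0.13 for AKI_PBS against sham (edgeR adjusted p = 3.14e-05) and 0.60 ± 0.13 for AKI_PTPi_mEVs against AKI_PBS (edgeR adjusted p = 0.00239). That of -0.46 ± 0.13 against sham (edgeR adjusted p = 0.037) did not hold without AKI_PTPi_mEVs replicate 1 (-0.43) or 2 (-0.42), or without sham replicate 1 (-0.50), 2 (-0.46) or 3 (-0.43).

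Ndufs8 (ENSMUSG00000059734), a core iron-sulfur subunit near the coenzyme Q site, showed the largest fall with injury in complex I. It had 179, 252 and 267 CPM in AKI_PTPi_mEVs libraries, 191, 134 and 105 CPM in AKI_PBS libraries, and 411, 365 and 347 CPM in sham libraries. Sham libraries were apart from all injured ones, while AKI_PTPi_mEVs replicate 1 lay below AKI_PBS replicate 1. The log2 fold change was -1.38 ± 0.21 for AKI_PBS against sham (edgeR adjusted p = 0.000141) and 0.70 ± 0.21 for AKI_PTPi_mEVs against AKI_PBS (edgeR adjusted p = 0.0141), and the second call was lost without AKI_PTPi_mEVs replicate 3 (0.59). Of the 7 nuclear core subunits of complex I, 5 were called lower with injury (5 to 7 with 1 library left out), beside 27.9% of all genes. With vesicles against PBS 3 of the 7 were called higher, beside 25.4% of all genes. Of these 3, Ndufs1 alone was called without AKI_PTPi_mEVs replicate 3. The accessory subunits Ndufb2 and Ndufa6 fell with injury by 1.10 and 1.02 on the log2 scale (edgeR adjusted p = 0.000343 and 0.000408). Ndufa1, an accessory subunit of the membrane arm, went the other way from Ndufs1: it was at 30.1, 36.5 and 35.7 CPM in AKI_PTPi_mEVs libraries, 45.8, 48.1 and 51.3 CPM in AKI_PBS libraries, and 57.4, 52.9 and 41.3 CPM in sham libraries. Its log2 fold change was -0.51 ± 0.15 with vesicles against PBS (edgeR adjusted p = 0.0132), not called without AKI_PTPi_mEVs replicate 1 (-0.42), and -0.06 ± 0.15 for AKI_PBS against sham (edgeR adjusted p = 0.736).

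Complex II oxidises succinate and is the complex in which all 4 subunits were called lower with injury, beside 27.9% of all genes. The log2 fold changes were -0.85 to -0.40 for AKI_PBS against sham. The count of 4 was 2 without AKI_PBS replicate 2, sham replicate 2 or sham replicate 3. Sdha (ENSMUSG00000021577), the flavoprotein that binds succinate, had 905, 880 and 1020 CPM in AKI_PTPi_mEVs libraries, 606, 488 and 723 CPM in AKI_PBS libraries, and 764, 912 and 948 CPM in sham libraries. Sdhd (ENSMUSG00000000171), a membrane anchor, had 602, 666 and 758 CPM in AKI_PTPi_mEVs libraries, 490, 409 and 421 CPM in AKI_PBS libraries, and 667, 671 and 739 CPM in sham libraries. For both genes AKI_PBS libraries lay below all others, and AKI_PTPi_mEVs and sham libraries overlapped. Both had a log2 fold change of 0.62 for AKI_PTPi_mEVs against AKI_PBS (SE 0.16 and 0.14, edgeR adjusted p = 0.00635 and 0.00261), and both calls held with any 1 library left out. With injury Sdhd fell by 0.66 (edgeR adjusted p = 0.00154), and Sdha by 0.53 (edgeR adjusted p = 0.0141), the call of Sdha being lost without AKI_PBS replicate 2 (-0.40), sham replicate 2 (-0.50) or sham replicate 3 (-0.47).

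Sdhb (ENSMUSG00000009863), the iron-sulfur subunit between Sdha and the anchors, had another order of libraries, which it shared with Sdhc. It had 481, 614 and 696 CPM in AKI_PTPi_mEVs libraries, 566, 425 and 455 CPM in AKI_PBS libraries, and 887, 847 and 865 CPM in sham libraries. The injured groups overlapped and both lay below sham. Sdhb had log2 fold changes of -0.85 ± 0.16 for AKI_PBS against sham (edgeR adjusted p = 0.000762) and 0.31 ± 0.16 for AKI_PTPi_mEVs against AKI_PBS (edgeR adjusted p = 0.129). That of -0.54 ± 0.16 for AKI_PTPi_mEVs against sham (edgeR adjusted p = 0.0447) was lost without AKI_PTPi_mEVs replicate 1 (-0.40) or 2 (-0.58), or without sham replicate 1 (-0.52), 2 (-0.55) or 3 (-0.54). Sdhc, the other anchor, had 337, 378 and 450 CPM in AKI_PTPi_mEVs libraries, 356, 329 and 397 CPM in AKI_PBS libraries, and 463, 456 and 510 CPM in sham libraries. Again the injured groups overlapped and both lay below sham. Its log2 fold change was -0.40 ± 0.14 for AKI_PBS against sham (edgeR adjusted p = 0.0296), lost without AKI_PBS replicate 1 (-0.39) or 2 (-0.34), or without sham replicate 2 (-0.43) or 3 (-0.35). With vesicles it was 0.11 ± 0.14 against PBS and -0.29 ± 0.14 against sham, with no call (edgeR adjusted p = 0.547 and 0.196). The difference between Sdhb and Sdhc on the one side and Sdha and Sdhd on the other was not tested.

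**Figure D4:**
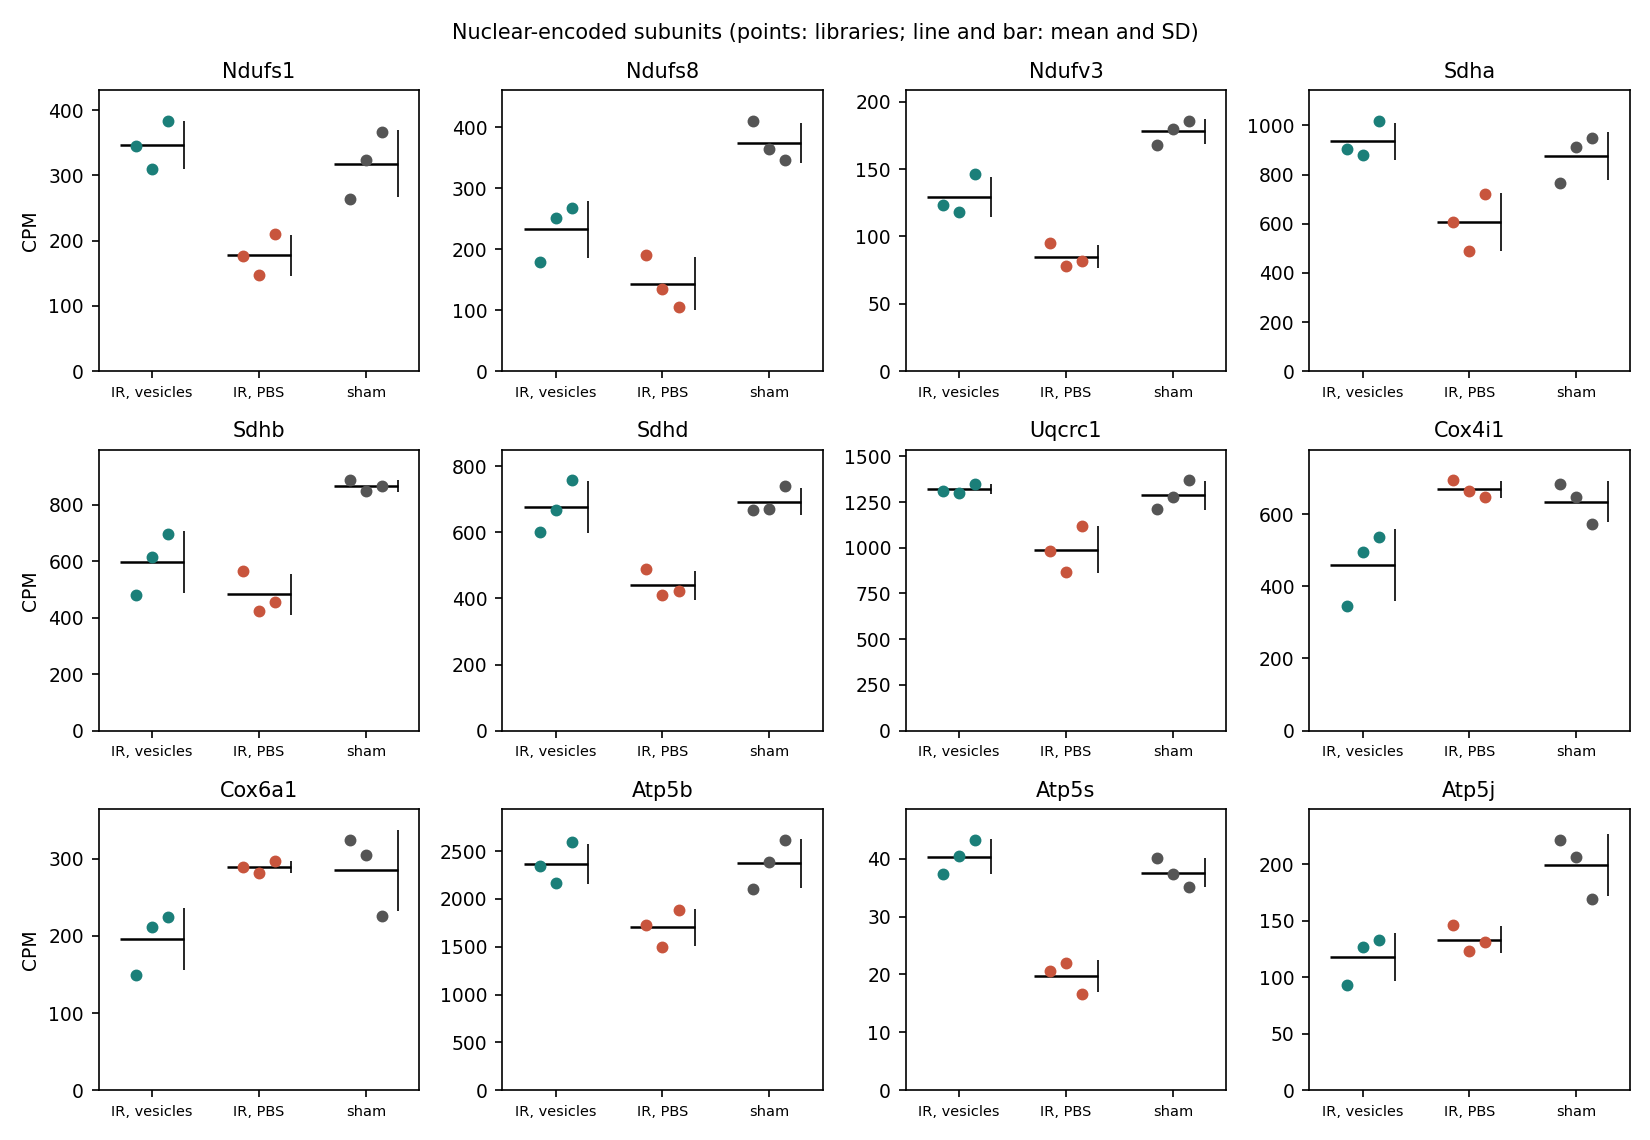
CPM (linear axes from 0) of 12 nuclear subunit genes in each library, with AKI_PTPi_mEVs left, AKI_PBS in the middle and sham right; lines are group means and bars SD over 3 libraries. Ndufs1, Sdha, Sdhd and Atp5s are lowest in AKI_PBS libraries, while Cox4i1 and Cox6a1 are lowest in AKI_PTPi_mEVs libraries.

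In complex III, 5 of 8 nuclear members were called lower with injury, beside 27.9% of all genes. The count was 1 without AKI_PBS replicate 2 or sham replicate 2, and 2 without AKI_PBS replicate 1 or sham replicate 1. Uqcr11, a small subunit, had the largest fall, with a log2 fold change of -0.64 ± 0.16 for AKI_PBS against sham (edgeR adjusted p = 0.00422). Uqcrc1, the larger core protein, had 1310, 1300 and 1350 CPM in AKI_PTPi_mEVs libraries, 981, 865 and 1120 CPM in AKI_PBS libraries, and 1210, 1280 and 1370 CPM in sham libraries. AKI_PBS libraries were the lowest, and AKI_PTPi_mEVs libraries fell within the sham range. Uqcrc1 and its partner Uqcrc2 had log2 fold changes of 0.42 and 0.47 with vesicles against PBS (edgeR adjusted p = 0.0219 and 0.0179), calls lost without AKI_PTPi_mEVs replicate 3 (0.40 and 0.43) or AKI_PBS replicate 2 (0.33 and 0.34), and that of Uqcrc1 also without AKI_PBS replicate 1 (0.41). Uqcrh, the hinge protein at the cytochrome c side, did not share this pattern: it had 66.9, 87.3 and 93.1 CPM in AKI_PTPi_mEVs libraries, 103, 105 and 106 CPM in AKI_PBS libraries, and 140, 138 and 105 CPM in sham libraries. Its log2 fold change was -0.63 ± 0.15 for AKI_PTPi_mEVs against sham (edgeR adjusted p = 0.0185), lost without AKI_PTPi_mEVs replicate 1 (-0.50), sham replicate 1 (-0.56) or sham replicate 2 (-0.57), and -0.34 ± 0.15 for AKI_PTPi_mEVs against AKI_PBS (edgeR adjusted p = 0.0795).

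Complex IV had the smallest share of nuclear members called lower with injury, 5 of 17 for AKI_PBS against sham (3 without sham replicate 1). This was near the 27.9% of all genes called lower. Cox6a2, a member through its sham counts alone, is 1 of these 5. With vesicles against PBS 5 of 17 were lower, near the 25.8% of all genes called lower. Another 2 were higher, beside 25.4% of all genes, and Cox6a2 is 1 of these 2. The count of 5 became 1 without AKI_PTPi_mEVs replicate 1, and the count of 2 became 0 without AKI_PTPi_mEVs replicate 3, AKI_PBS replicate 2 or AKI_PBS replicate 3, and 1 without AKI_PTPi_mEVs replicate 1 or sham replicate 2. Cox4i1, the common form of a regulatory subunit, had 345, 494 and 536 CPM in AKI_PTPi_mEVs libraries, 694, 665 and 646 CPM in AKI_PBS libraries, and 684, 648 and 571 CPM in sham libraries. Cox6a1, the non-muscle form of another, had 150, 212 and 225 CPM in AKI_PTPi_mEVs libraries, 289, 281 and 297 CPM in AKI_PBS libraries, and 325, 305 and 226 CPM in sham libraries. For both genes AKI_PTPi_mEVs libraries lay below all others, replicate 1 lowest, and AKI_PBS and sham libraries overlapped. The log2 fold changes with vesicles against PBS were -0.54 ± 0.16 and -0.56 ± 0.18 (edgeR adjusted p = 0.0145 and 0.0167), and without AKI_PTPi_mEVs replicate 1 they were -0.38 and -0.40 and not called. With injury the same genes had log2 fold changes of 0.08 ± 0.16 and 0.02 ± 0.17 (edgeR adjusted p = 0.718 and 0.935).

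Several complex IV subunits exist as isoform pairs with different tissue use, and the largest log2 fold changes of this complex belonged to minor isoforms. Cox4i2, the form known from lung and hypoxic cells, had 0.734, 0.982 and 1.10 CPM in AKI_PTPi_mEVs libraries, 2.51, 5.23 and 2.74 CPM in AKI_PBS libraries, and 2.74, 2.33 and 1.32 CPM in sham libraries. AKI_PTPi_mEVs libraries lay below all others. Cox4i2 had a log2 fold change of -1.90 ± 0.41 with vesicles against PBS (edgeR adjusted p = 0.00196), which held with any 1 library left out, and 0.71 ± 0.36 for AKI_PBS against sham (edgeR adjusted p = 0.114). Ndufa4l2, a hypoxia-induced paralog of Ndufa4, had 5.69, 5.89 and 7.58 CPM in AKI_PTPi_mEVs libraries, 4.32, 2.66 and 1.86 CPM in AKI_PBS libraries, and 14.7, 11.8 and 6.50 CPM in sham libraries. AKI_PBS libraries were the lowest. With injury the log2 fold change was -1.90 ± 0.35 (edgeR adjusted p = 0.000527), and it was 1.11 ± 0.35 with vesicles against PBS (edgeR adjusted p = 0.0189), the second lost without AKI_PTPi_mEVs replicate 3 (0.97), AKI_PBS replicate 2 (1.04) or AKI_PBS replicate 3 (0.87). Both genes are known from pericytes, whose 7 markers with those of smooth muscle summed to 267 to 399 CPM in AKI_PTPi_mEVs libraries, 494 to 607 CPM in AKI_PBS libraries and 433 to 502 CPM in sham libraries, none at 0. The part of these cells in the result was not tested.

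Cox7a1, an isoform known from heart, skeletal muscle and brown fat, fell with injury. Cox6a2 is another muscle isoform. Cox6a2 (ENSMUSG00000030785) had 9, 5 and 9 counts in AKI_PTPi_mEVs libraries, 5, 3 and 3 counts in AKI_PBS libraries, and 42, 28 and 25 counts in sham libraries. Sham libraries were apart from both injured groups, with log2 fold changes of -1.95 for AKI_PTPi_mEVs against sham and -3.23 for AKI_PBS against sham. These are a description with no test, since the gene became a member through its sham counts alone. Between the injured groups its log2 fold change was 1.28 ± 0.49 (edgeR adjusted p = 0.0437), a call lost without AKI_PTPi_mEVs replicate 1 (1.24) or 3 (1.10), AKI_PBS replicate 2 (1.15) or 3 (1.17), or sham replicate 2 (1.28). Cox7a1 had a log2 fold change of -1.02 ± 0.28 for AKI_PBS against sham (edgeR adjusted p = 0.00763), while the ubiquitous isoform Cox7a2 had -0.39 ± 0.16 (edgeR adjusted p = 0.0579). Cox8b, below the count limit, had 3, 4 and 4 counts in AKI_PTPi_mEVs libraries, 2, 1 and 0 counts in AKI_PBS libraries, and 14, 14 and 5 counts in sham libraries. Beside these, 5 brown fat markers summed to 2.64 to 23.6 CPM in AKI_PTPi_mEVs libraries, 1.54 to 18.9 CPM in AKI_PBS libraries and 23.3 to 56.3 CPM in sham libraries. None of the 5 was at 0 in all libraries. Of the 4 markers tested, 2 were called lower and 0 higher for AKI_PBS against sham, beside 27.9% and 27.8% of all genes. The part of fat tissue in the result was not tested, and the sum of 9 skeletal and heart muscle markers was 3.38 to 6.15 CPM in AKI_PTPi_mEVs libraries, 4.49 to 11 CPM in AKI_PBS libraries and 4.61 to 5.58 CPM in sham libraries, with none at 0 in every library.

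In ATP synthase, 9 of 17 nuclear members were called lower with injury (7 to 11 with 1 library left out), beside 27.9% of all genes. With vesicles against PBS 2 were higher and 2 lower, beside 25.4% and 25.8% of all genes. Without AKI_PTPi_mEVs replicate 1 these 2 counts of members were 4 and 0. Just 1 was higher without AKI_PTPi_mEVs replicate 3 or AKI_PBS replicate 2, and 1 was lower without AKI_PBS replicate 1. Atp5s (ENSMUSG00000054894) had 37.3, 40.4 and 43.3 CPM in AKI_PTPi_mEVs libraries, 20.6, 21.9 and 16.6 CPM in AKI_PBS libraries, and 40.1, 37.4 and 35.1 CPM in sham libraries. AKI_PBS libraries were apart from the 6 others, which overlapped. Its log2 fold changes were -0.93 ± 0.15 for AKI_PBS against sham (edgeR adjusted p = 0.000179), 1.03 ± 0.15 for AKI_PTPi_mEVs against AKI_PBS (edgeR adjusted p = 0.000109) and 0.10 ± 0.14 for AKI_PTPi_mEVs against sham (edgeR adjusted p = 0.689). Atp5b, the catalytic beta subunit, had 2340, 2170 and 2590 CPM in AKI_PTPi_mEVs libraries, 1730, 1500 and 1880 CPM in AKI_PBS libraries, and 2100, 2390 and 2620 CPM in sham libraries. AKI_PBS libraries were again the lowest and the other groups overlapped, with log2 fold changes of -0.48 ± 0.15 with injury and 0.48 ± 0.15 with vesicles against PBS (edgeR adjusted p = 0.0153 and 0.017). The first was not called without AKI_PBS replicate 2 (-0.39) or sham replicate 3 (-0.40), and the second without AKI_PTPi_mEVs replicate 3 (0.41) or AKI_PBS replicate 2 (0.39).

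Atp5j (ENSMUSG00000022890), a subunit of the peripheral stalk, was lower in both injured groups. It had 93.4, 127 and 133 CPM in AKI_PTPi_mEVs libraries, 146, 123 and 131 CPM in AKI_PBS libraries, and 222, 207 and 169 CPM in sham libraries. The injured groups overlapped and lay below sham, with log2 fold changes of -0.76 ± 0.16 for AKI_PTPi_mEVs against sham (edgeR adjusted p = 0.00921) and -0.58 ± 0.16 for AKI_PBS against sham (edgeR adjusted p = 0.00785). Its call for AKI_PTPi_mEVs against sham held with any 1 library left out, which was so for 2 of the 28 nuclear members, the other being Cox6a2, a member through its sham counts alone. Atp5g3, encoding the ring that turns with proton flow, had 132, 186 and 199 CPM in AKI_PTPi_mEVs libraries, 264, 228 and 225 CPM in AKI_PBS libraries, and 260, 256 and 232 CPM in sham libraries. AKI_PTPi_mEVs libraries were the lowest, with a log2 fold change of -0.47 ± 0.16 against AKI_PBS (edgeR adjusted p = 0.0249), lost without AKI_PTPi_mEVs replicate 1 (-0.31) or AKI_PBS replicate 1 (-0.39). Its paralog Atp5g1, which encodes the same mature ring protein, had log2 fold changes of -0.81 ± 0.17 with injury (edgeR adjusted p = 0.0017) and 0.33 ± 0.17 with vesicles against PBS (edgeR adjusted p = 0.129). The inhibitor of ATP synthase, Atp5if1 (Atpif1 in the annotation), had log2 fold changes of -0.39 ± 0.17 with injury, -0.02 ± 0.17 with vesicles against PBS and -0.42 ± 0.17 for AKI_PTPi_mEVs against sham, with no call (edgeR adjusted p = 0.0579, 0.918 and 0.115).

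Genes that build the respiratory chain were mostly lower with injury and higher with vesicles than with PBS. Of 50 assembly factors tested, 31 were lower and 1 higher for AKI_PBS against sham, 29 were higher and 2 lower for AKI_PTPi_mEVs against AKI_PBS, and 1 was higher and 3 lower for AKI_PTPi_mEVs against sham. Over all genes, 27.9% were lower and 27.8% higher with injury. With vesicles 25.4% were higher and 25.8% lower against PBS, and 7.43% higher and 5.79% lower against sham. The single higher call of an assembly factor with injury was lost without AKI_PBS replicate 2, and 1 was lower with vesicles against PBS without AKI_PTPi_mEVs replicate 1. The count of 3 was 0 without AKI_PTPi_mEVs replicate 1 or 2, or sham replicate 1 or 2, and 7 without AKI_PBS replicate 3. The median log2 fold changes of the assembly factors were -0.56, 0.55 and -0.06 in the same order of comparisons, beside 0.03, -0.03 and -0.01 over all genes. Bcs1l, the chaperone that inserts the Rieske protein into complex III, had 62.9, 65.1 and 65.8 CPM in AKI_PTPi_mEVs libraries, 14.1, 11.3 and 7.69 CPM in AKI_PBS libraries, and 38.0, 45.5 and 49.3 CPM in sham libraries. The 3 groups were apart, AKI_PBS lowest and AKI_PTPi_mEVs highest, with log2 fold changes of -2.00 ± 0.20 with injury and 2.55 ± 0.20 with vesicles against PBS (edgeR adjusted p = 4.23e-06 and 1.67e-06). The complex I assembly factors Ecsit and Tmem126b fell by 1.28 and 1.39 with injury and were higher by 1.38 and 1.57 with vesicles than with PBS (edgeR adjusted p from 5.97e-06 to 9.92e-06).

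Of 13 genes for coenzyme Q synthesis, 8 were lower with injury and 8 higher with vesicles against PBS, with 1 called the other way in each. Over all genes, 27.9% were lower and 27.8% higher with injury, and 25.4% were higher and 25.8% lower with vesicles. In this list the higher call with injury held only without AKI_PBS replicate 3 or sham replicate 3. The lower call with vesicles was lost without AKI_PTPi_mEVs replicate 1 and became 2 without AKI_PBS replicate 3. Coq9, a lipid-binding protein of that pathway, had log2 fold changes of -1.86 ± 0.16 with injury and 1.70 ± 0.16 with vesicles against PBS (edgeR adjusted p = 1.52e-06 and 4.65e-06). Of 14 citric acid cycle genes, 8 were lower with injury and 0 higher, and 11 were higher with vesicles against PBS and 0 lower, beside the same shares. That list holds no Sdh gene. Idh3a, the catalytic subunit of the NAD-dependent isocitrate dehydrogenase, had log2 fold changes of -0.97 ± 0.13 with injury and 1.33 ± 0.14 with vesicles against PBS (edgeR adjusted p = 6.56e-05 and 9.28e-06). Of 11 carriers and electron donors tested, 4 were lower and 1 higher with injury, and 5 were higher and 0 lower with vesicles against PBS, beside 27.9% of all genes lower with injury and 25.4% higher with vesicles. The ADP/ATP carrier gene Slc25a5 had log2 fold changes of -0.90 ± 0.16 with injury and 0.57 ± 0.16 with vesicles against PBS (edgeR adjusted p = 0.00048 and 0.0101), while cytochrome c (Cycs) had -0.28 ± 0.14 and -0.09 ± 0.14 and was not called (edgeR adjusted p = 0.108 and 0.623).

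Many of the nuclear genes that express mtDNA were lower with injury and higher with vesicles than with PBS. Of 41 tested, 23 were lower and 3 higher with injury (1 higher without sham replicate 1), beside 27.9% and 27.8% of all genes. With vesicles against PBS 23 were higher and 0 lower, beside 25.4% and 25.8% of all genes. Of the 12 mtDNA members 8 were lower with vesicles against PBS, and 10 were not called with injury. The difference between the lists was not tested. Gfm2, a factor that recycles mitochondrial ribosomes, had log2 fold changes of -1.49 ± 0.14 with injury and 1.65 ± 0.14 with vesicles against PBS (edgeR adjusted p = 3.55e-06 and 2.83e-06). Pnpt1, an exonuclease and import factor for mitochondrial RNA, had 42.4, 46.0 and 43.3 CPM in AKI_PTPi_mEVs libraries, 20.1, 16.1 and 20.0 CPM in AKI_PBS libraries, and 29.1, 28.6 and 26.9 CPM in sham libraries. Its 3 groups were apart, and the log2 fold change with vesicles against PBS was 1.23 ± 0.14 (edgeR adjusted p = 2.1e-05). Tfam, which packages mtDNA and starts its transcription, had log2 fold changes of -0.02 ± 0.16 with injury and 0.08 ± 0.16 with vesicles against PBS, with no call (edgeR adjusted p = 0.927 and 0.675).

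Of 13 regulators of mitochondrial genes, 6 were lower and 3 higher with injury (5 higher without AKI_PBS replicate 2), beside 27.9% and 27.8% of all genes. With vesicles against PBS 3 were higher and 3 lower, of which 1 was lower without AKI_PTPi_mEVs replicate 3, beside 25.4% and 25.8%. The counts of 3 are near those shares. For AKI_PTPi_mEVs against sham 2 were higher (Gabpb1 and Pprc1) and 3 lower (Esrrb, Ppargc1b and Perm1), beside 7.43% and 5.79% of all genes. The count higher was 0 without AKI_PTPi_mEVs replicate 1 or 2, or sham replicate 2. The count lower was 0 without sham replicate 1. Gabpb1 and Pprc1 were also called lower with vesicles than with PBS, and Esrrb lower with injury. Esrra, a nuclear receptor that activates respiratory genes, had 63.9, 58.2 and 70.1 CPM in AKI_PTPi_mEVs libraries, 25.2, 31.3 and 19.4 CPM in AKI_PBS libraries, and 71.8, 71.3 and 83.7 CPM in sham libraries. AKI_PBS libraries were the lowest of all and AKI_PTPi_mEVs libraries lay below sham, with log2 fold changes of -1.58 ± 0.17 with injury (edgeR adjusted p = 9.48e-06), 1.34 ± 0.17 with vesicles against PBS (edgeR adjusted p = 4.64e-05) and -0.24 ± 0.17 for AKI_PTPi_mEVs against sham (edgeR adjusted p = 0.371). Its relative Esrrg (-1.32 and 1.30) and their coactivator Ppargc1a (-1.03 and 0.67) were called in the same directions with injury and with vesicles (edgeR adjusted p from 1.96e-05 to 0.00113). Nrip1, a corepressor, went the other way, at 1.11 ± 0.21 with injury and -1.01 ± 0.21 with vesicles against PBS (edgeR adjusted p = 0.000583 and 0.00139). Among 23 genes of mitophagy and mitochondrial stress, 7 were lower and 4 higher with injury (2 higher without sham replicate 2), beside 27.9% and 27.8% of all genes. The 7 lower with injury were near that share. With vesicles against PBS 8 were higher and 3 lower, beside 25.4% and 25.8% of all genes. Gdf15, a secreted stress signal, stayed above sham with vesicles, at a log2 fold change of 2.04 ± 0.25 (edgeR adjusted p = 0.000447), and was lower than with PBS by 1.95 on the log2 scale (edgeR adjusted p = 3.4e-05).

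Promoter sequences from RefSeq on GRCm38.p6, from 250 bases before to 50 bases after the start, were matched for 66 of the 81 nuclear members. Motifs were sought on both strands as exact letters. The palindromic NRF1 motif, spelled in capitals in the Uqcrc1 and Cox6a1 promoters, was in 5 member promoters (7.58%, against 1.07% of 27025 promoters), the YY1 motif AAGATGGCG in 7 (10.6%, against 1.64%), the ERR motif TCAAGGTCA in 2 (3.03%, against 0.466%) and the GABPA motif CCGGAAGTG in 2 (3.03%, against 2.25%). Among promoters of protein-coding genes alone, these shares were 1.47%, 2.14%, 0.377% and 3.01% in the same order of motifs. The 4 promoters below were chosen after their values were seen, because each motif is shared by a gene that was higher and a gene that was lower with vesicles against PBS. They are given 5′ to 3′ on the strand of the gene, with the motif or its reverse complement in capitals. Sdhd lies at chr9:50603800-50604099 (minus strand) and Atp5g3 at chr2:73911277-73911576 (minus strand), both with the ERR motif, which reads here as its reverse complement. Uqcrc1 lies at chr9:108936398-108936697 (plus strand) and Cox6a1 at chr5:115348909-115349208 (minus strand), both with the NRF1 motif.
Sdhd: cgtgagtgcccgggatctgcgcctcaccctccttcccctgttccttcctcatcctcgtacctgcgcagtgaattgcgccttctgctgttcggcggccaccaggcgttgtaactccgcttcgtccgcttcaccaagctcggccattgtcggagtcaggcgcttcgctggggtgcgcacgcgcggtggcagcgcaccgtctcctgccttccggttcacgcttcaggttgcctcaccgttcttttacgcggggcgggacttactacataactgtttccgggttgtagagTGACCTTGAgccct
Atp5g3: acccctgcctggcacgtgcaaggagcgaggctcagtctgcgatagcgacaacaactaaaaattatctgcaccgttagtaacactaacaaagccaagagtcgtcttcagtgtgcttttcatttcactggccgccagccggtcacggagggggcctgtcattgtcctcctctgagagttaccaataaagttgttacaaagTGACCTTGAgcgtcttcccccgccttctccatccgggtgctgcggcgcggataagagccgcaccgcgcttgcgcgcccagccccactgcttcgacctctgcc
Uqcrc1: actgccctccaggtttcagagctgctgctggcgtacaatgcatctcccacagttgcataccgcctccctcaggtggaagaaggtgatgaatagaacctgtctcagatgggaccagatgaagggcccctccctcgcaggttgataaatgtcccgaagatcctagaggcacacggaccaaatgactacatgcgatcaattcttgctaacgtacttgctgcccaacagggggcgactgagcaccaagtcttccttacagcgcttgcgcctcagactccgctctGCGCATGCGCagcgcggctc
Cox6a1: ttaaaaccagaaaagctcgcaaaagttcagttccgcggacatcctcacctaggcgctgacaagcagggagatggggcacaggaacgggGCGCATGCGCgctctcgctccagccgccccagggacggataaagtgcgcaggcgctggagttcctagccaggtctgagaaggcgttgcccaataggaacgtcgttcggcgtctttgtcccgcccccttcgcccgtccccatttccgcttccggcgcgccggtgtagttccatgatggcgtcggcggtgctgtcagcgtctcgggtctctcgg
With vesicles against PBS, Sdhd had a log2 fold change of 0.62 and Atp5g3 of -0.47, while Uqcrc1 had 0.42 and Cox6a1 had -0.56, the opposite directions by which the pairs were picked. A match is a description of letters and says nothing of binding.

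Most nuclear subunits are small proteins, and the summed exon length of their genes went with their log2 fold change in both comparisons of the vesicle group. This length joins all annotated exons of a gene and is not that of 1 transcript or of the protein. For Ndufb2 it is 5628 bases and for Atp5l 6443. Over the 81 nuclear members, Spearman's rho between exon length and the log2 fold change was 0.37 for AKI_PTPi_mEVs against AKI_PBS and 0.36 for AKI_PTPi_mEVs against sham, and -0.17 for AKI_PBS against sham. Over 16646 genes with a length, the same rho was 0.01, 0.13 and 0.05. These are descriptions across genes of the same libraries, which are not independent replicates. With vesicles against PBS, 6 of the 59 members up to 2239 bases long were called higher and 6 lower, where 21.1% and 25.6% of all genes in that length range were. Of the 12 members of 2313 to 3567 bases, 3 were higher and 1 lower, beside 29.4% and 22.4% of all genes. Of the 8 members of 4105 to 5628 bases, 3 were higher and 0 lower, beside 28.7% and 24.3%, and of the 2 longer ones 1 was higher and 1 lower. Against sham, 23 of the 59 members up to 2239 bases were called lower in AKI_PTPi_mEVs libraries. The median log2 fold change of the 59 was -0.54. All genes of that length range had a median of -0.17, of which 8.68% were called lower.

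**Figure D5:**
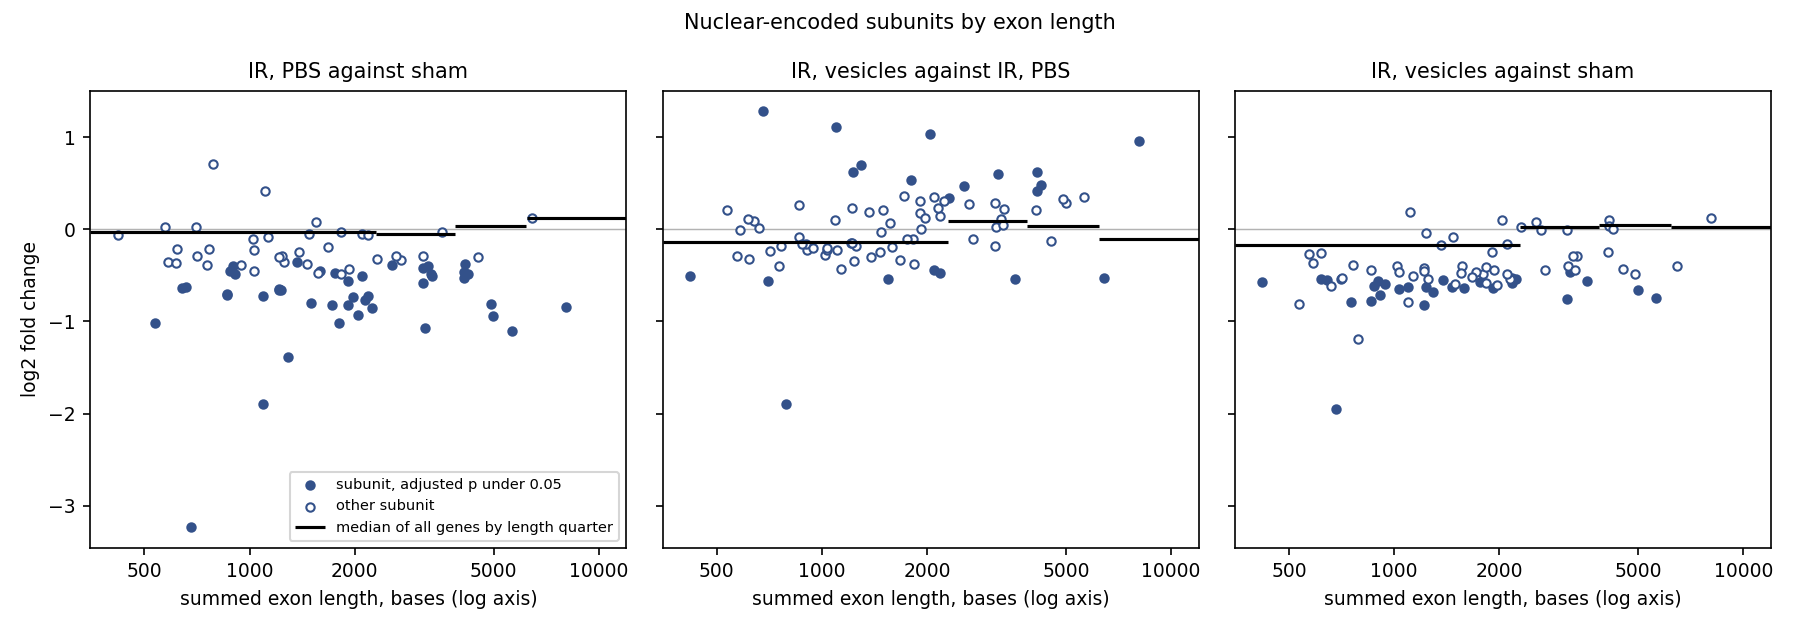
Log2 fold change (vertical axis) of the 81 nuclear subunit genes against summed exon length in bases (horizontal, log axis) in 3 comparisons; filled points passed an edgeR adjusted p of 0.05, and black lines are medians of all genes in 4 length ranges. In the comparison of AKI_PTPi_mEVs with sham the genes with up to 2239 exon bases lie lower (median -0.54) than those of 4105 to 5628 bases (-0.34).

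Within a group, the subunits often shared their order of libraries. AKI_PTPi_mEVs replicate 1 was the lowest of its group for 72 of 81 nuclear and 11 of 12 mtDNA members, and replicate 3 was the highest for 58 nuclear members. In the sham group replicate 3 was the lowest for 61 nuclear members and replicate 1 the highest for 55 nuclear and 10 mtDNA members. In the AKI_PBS group replicate 1 was the highest for 46 nuclear members but the lowest for 9 of 12 mtDNA members, replicate 2 was the lowest for 43 nuclear members, and replicate 3 was the highest for 8 mtDNA members. Members measured in the same library are therefore not independent of one another.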

How the data were processed

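RNA from whole kidneys of 9 mouse samples, 3 per group, was sequenced. Extraction used phenol-chloroform and 100 ng of total RNA entered a Tn5-based library kit, per the labels' protocols. The submitters' processing notes name STAR, HTSeq and the build GRCh38.p14, a human build, while the table holds mouse Ensembl identifiers. The authors' build therefore remains unsettled here, and the table gave no coordinates. The deposited values are raw counts per gene, made by the authors, and the strand setting is not given in the sources used here. Symbols, biotypes, exon lengths and GC content came from GENCODE M21 (GRCm38), which named 52073 identifiers. The other 4850 held 0.768% of the counts.

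Groups were taken from the treatment labels and titles. In the vesicle group the title of replicate 2 reads PTP@mEVs where those of replicates 1 and 3 read PTPi@mEVs, and the treatment label of all 3 reads PTPi@mEVs, after which the group is named. Libraries of the same group differed by more than sampling noise (chi-square per degree of freedom 6.16 to 32.3), so none was counted as a duplicate. Members and gene lists were chosen with earlier results of these data known.

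All 9 libraries were fitted together with edgeR 4.0.16 (filterByExpr, TMM, robust quasi-likelihood F-test, 6 residual degrees of freedom) in R 4.3.3, with Benjamini-Hochberg adjustment over 17036 genes and a threshold of 0.05. Levels are CPM or RPKM on TMM library sizes, and fitted fold changes are log2 values with their SE. The test was tried on simulated counts. Named genes were all mtDNA members, all of complex II, the called nuclear members with the smallest adjusted p per complex and comparison, the isoform pairs of complex IV, Atp5if1, and up to 3 genes per pathway list and comparison. To these came every called regulator of mitochondrial genes, and Tfam, Ppargc1a, Esrra and Cycs whatever their p. Ndufa1, Ndufa6 and Atp5g3, outside this rule, were added after their values were seen. Atp5a1 and Atp5l, also outside it, are named only for their level and exon length. The alternatives were other scalings, DESeq2 1.42.0, other low-count filters, a replicate block, a fit restricted to the groups of a comparison, omission of each library, and, chosen after seeing the data, a correction for length and GC content with a spline of 5 degrees of freedom on 16646 genes. Figures were drawn with matplotlib 3.10.9.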

Additional observations from a re-analysis of the deposited data

How the results depend on the processing

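No called result changed its direction under any of the 19 alternatives, while medians near 0 changed sign: that of nuclear members for AKI_PTPi_mEVs against AKI_PBS was -0.11 with library totals. For AKI_PTPi_mEVs against AKI_PBS, library totals in place of TMM factors put the median log2 fold change of all genes at -0.13. The correction for length and GC content, chosen after seeing the data, put the median of the mtDNA members at -0.44 (-0.43 with the replicate block) and their count called lower at 5 (5 with the block). For AKI_PTPi_mEVs against sham the same correction gave a median of -0.34 for mtDNA members and a count of 0 lower, both with and without the block. In that comparison the nuclear members called lower numbered 44 without a low-count filter, 13 with a replicate block, 17 after the length and GC correction and 9 with correction and block together. The causes were not tested.

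With each library left out in turn, the AKI_PBS against sham comparison gave 3829 to 4655 genes higher and 4063 to 4787 lower, medians of 0.01 to 0.05 for all genes, -0.09 to 0.20 for mtDNA members and -0.50 to -0.37 for nuclear members, 1 to 2 mtDNA members higher and 31 to 50 nuclear members lower. For AKI_PTPi_mEVs against AKI_PBS the counts were 3675 to 4306 genes higher and 3546 to 4314 lower, with medians of -0.03 to -0.02, -0.87 to -0.67 and -0.08 to 0.16 in the same order, 7 to 9 mtDNA members lower, 5 to 17 nuclear members higher and 1 to 8 lower. For AKI_PTPi_mEVs against sham they were 488 to 1888 higher and 395 to 1466 lower, with medians of -0.02 to 0, -0.78 to -0.51 and -0.60 to -0.36, 0 to 6 mtDNA members lower and 2 to 32 nuclear members lower.

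Libraries with the same replicate number in different groups had correlations of -0.19 to 0.11 in their deviations from the group means, so the numbers were not read as pairs. Low counts limit the precision of mt-Co2, mt-Atp8, mt-Atp6, mt-Co3, mt-Nd4l, Cox4i2, Cox6a2, Cox6b2, Cox7a1 and Ndufa4l2, which had at most 150 counts in every library.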
